A study of Mus musculus with 3 samples.

Results

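The integrated stress response genes described here are 10 mouse genes picked by symbol: Atf4, Ddit3 (which encodes CHOP), Trib3, Chac1, Ddit4, Gdf15, Asns, Sesn2, Ppp1r15a and Vldlr. All 10 were among the 49492 gene entries of the files, and all 10 were among the 14585 entries with at least 1 CPM (counts scaled to a common library size) in at least 1 library. Chac1 reached that level in the ZnO libraries alone and Asns in the control library alone. Their RNA was measured by sequencing of liver RNA from CD-1 mice, an outbred strain. Mice were dosed orally with nanoparticles of zinc oxide (ZnO) for 12 weeks or for 8 weeks, at a daily 25 mg per kg of body weight, and control mice were dosed with phosphate-buffered saline. The study's title names insulin resistance as its subject. Each group is a single library, hence differences could not be set against a spread between replicates, and p-values are not reported. The sex and age of the mice, the number of animals in a library and the time at which the control was taken are not given in the sources used here.

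The integrated stress response begins with kinases (PERK, GCN2, PKR and HRI) that sense misfolded protein in the endoplasmic reticulum (ER), lack of amino acids, double-stranded RNA or lack of heme, and that phosphorylate the translation initiation factor eIF2. Most protein synthesis then slows, while the mRNA of the transcription factor ATF4 is translated better because of short reading frames ahead of its coding sequence. ATF4 switches on amino acid supply genes, the transcription factor CHOP and, with CHOP, feedback inhibitors of the pathway. The phosphorylation of eIF2 and the translation of Atf4 mRNA were not measured, and the values below are levels of RNA. In bulk liver, fewer cells of a type and less RNA per cell cannot be told apart.

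The promoters were read first, because ATF4 binds with C/EBP proteins at a composite element, searched for as TGATGNAA on both strands between 250 bases before and 50 bases after the start site. RefSeq's promoter table (GRCm38.p6) held all 10 genes with 12 start sites, and 4 start sites, of 4 genes, carried the element, against 3.97% of all 32851 promoters. The ER stress element, searched for as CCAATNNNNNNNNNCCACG, was at none of the 12 start sites and in 0.119% of all promoters. A match is a description of sequence and no evidence of binding, and binding further away was not examined. The 4 elements, in capitals with 10 bases on each side, are shown so that they can be compared:
Chac1: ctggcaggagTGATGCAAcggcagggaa
Vldlr: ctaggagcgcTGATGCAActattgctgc
Trib3: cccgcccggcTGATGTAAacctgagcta
Asns: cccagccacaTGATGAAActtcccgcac
The Chac1 and Vldlr elements had the same 8 letters, and those of Trib3 and Asns differed from them at the base that the search left free. The Chac1 window is chr2:119351039-119351066, printed from the minus strand, with the element 193 to 186 bases before the start. The Vldlr window is chr19:27216810-27216837, minus strand, and belongs to the second of 2 start sites. The Trib3 window is chr2:152344029-152344056, plus strand, with the element at bases 15 to 22 after RefSeq's start of this minus-strand gene. In the deposited gene positions Trib3 starts at 152344032, and the element lies before that start. The Asns window is chr6:7693215-7693242, minus strand, with the element 23 to 16 bases before RefSeq's start. In the deposited gene positions this minus-strand gene starts at 7693254, and the element lies after that start.

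The 250 bases before the start of Chac1, of Ddit4 and of the first start of Gdf15 are given because these 3 genes differed from the control by 2-fold in both ZnO libraries. The capitals in Chac1 are the element read on the gene's own strand, and the other sequences have no match in this window:
Chac1: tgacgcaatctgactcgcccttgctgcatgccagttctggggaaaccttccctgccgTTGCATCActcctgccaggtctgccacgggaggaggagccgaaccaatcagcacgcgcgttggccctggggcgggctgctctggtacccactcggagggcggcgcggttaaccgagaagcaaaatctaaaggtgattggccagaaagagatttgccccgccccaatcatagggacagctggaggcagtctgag
Ddit4: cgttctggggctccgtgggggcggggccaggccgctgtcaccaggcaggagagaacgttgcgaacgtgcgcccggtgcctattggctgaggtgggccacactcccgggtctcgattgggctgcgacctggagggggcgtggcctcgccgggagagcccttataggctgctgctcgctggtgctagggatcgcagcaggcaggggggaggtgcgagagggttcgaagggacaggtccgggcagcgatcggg
Gdf15: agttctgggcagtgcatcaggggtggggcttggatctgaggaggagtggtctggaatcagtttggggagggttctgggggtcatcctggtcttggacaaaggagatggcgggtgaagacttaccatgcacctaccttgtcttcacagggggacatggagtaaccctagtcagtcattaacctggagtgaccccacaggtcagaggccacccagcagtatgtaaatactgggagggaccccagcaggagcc
These windows lie at chr2:119350992-119351241 (plus strand), chr10:59951771-59952020 (minus strand) and chr8:70632457-70632706 (minus strand). Any link between these elements and the levels of the genes was not tested.

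The 10 genes did not move in 1 direction. Genes that differed by at least 2-fold on the scale of log2(CPM + 1) are termed called, which describes their size and tests nothing. At 12 weeks, 2 of 10 were called higher (Chac1 and Ddit4) and 2 lower (Gdf15 and Trib3), where 3.11% of all kept genes were called higher and 1.34% lower. At 8 weeks, 3 of 10 were called higher (Ddit4, Vldlr and Chac1) and 1 lower (Gdf15), where 4.15% of all kept genes were called higher and 2.10% lower. The median log2 ratio of the 10 was -0.27 at 12 weeks and -0.08 at 8 weeks, against -0.01 and -0.02 over all kept genes. Both comparisons use the same control library, so its own deviation enters both. With 5 CPM added in place of 1, none of the 10 was called at either time, and 9 of them were at 31.3 CPM or below in every library.

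The exact 95% interval of the ratio of 2 counts, which covers counting error only, lay above 1 for 4 genes and below 1 for 4 at 12 weeks, and above 1 for 4 and below 1 for 3 at 8 weeks. Over all kept genes this was so for 21.0% above and 22.4% below at 12 weeks, and for 23.6% and 24.2% at 8 weeks. Differences beyond counting error were therefore common throughout the table. Amplified reads are not independent molecules, and differences between animals are not in these intervals.

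**Figure D1:**
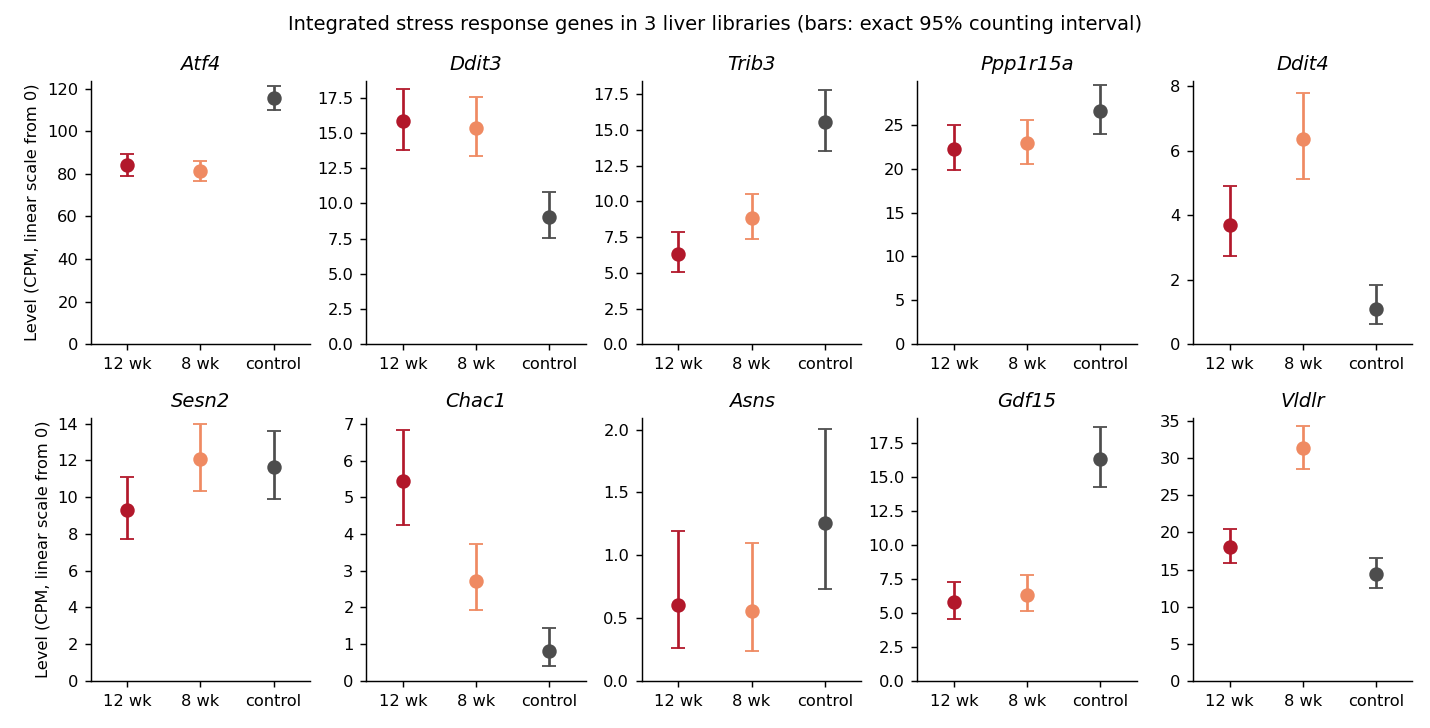
Level of each gene in CPM (linear axis from 0, a separate scale per panel) in the 12-week, 8-week and control libraries; points are single libraries and bars exact 95% counting intervals. Atf4, Trib3 and Gdf15 were highest in the control library, Ddit3, Chac1 and Ddit4 lowest there, and Vldlr lowest in the control and highest in the 8-week library.

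Atf4, the transcription factor at the centre of the pathway, had 84.0 CPM at 12 weeks, 81.4 CPM at 8 weeks and 116 CPM in the control library (1113, 1166 and 1568 counts). The ZnO libraries were close to each other and both were below the control. Its ratio to the control was 0.727 at 12 weeks (counting interval 0.673 to 0.786) and 0.704 at 8 weeks (0.652 to 0.760). Ddit3, whose product CHOP is a transcription factor linked to cell death under prolonged stress, had 15.9 CPM at 12 weeks, 15.4 CPM at 8 weeks and 9.07 CPM in the control library. It thus stood on the other side of the control from Atf4, again with nearly equal values in the ZnO libraries. Its ratio was 1.75 at 12 weeks (1.39 to 2.203) and 1.69 at 8 weeks (1.35 to 2.13), short of 2-fold. Exons of Ddit3 overlap those of the opposite-strand genes Mars by 68 bases and Gm4189 by 13 bases, and the use of strand in counting is not given in the sources used here. Mars had a log2 ratio of -0.06 at 12 weeks and -0.53 at 8 weeks, and Gm4189 had 5 to 8 counts.

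Trib3 encodes a pseudokinase that binds ATF4 and CHOP and dampens the response, and that has been described in mouse liver as an inhibitor of the insulin-activated kinase AKT. It had 6.34 CPM at 12 weeks, 8.86 CPM at 8 weeks and 15.6 CPM in the control library (84, 127 and 211 counts). The 12-week library was lowest and the control highest, and their counting intervals were apart. The ratio to the control was 0.408 at 12 weeks (0.313 to 0.528), called lower, and 0.570 at 8 weeks (0.454 to 0.714), not called. Ppp1r15a encodes GADD34, the inducible subunit that directs protein phosphatase 1 to eIF2 and so ends the response. Its level was 22.3 CPM at 12 weeks, 22.9 CPM at 8 weeks and 26.6 CPM in the control library. The ratio was 0.837 at 12 weeks (0.715 to 0.979) and 0.860 at 8 weeks (0.739 to 1.00). Exons of Ppp1r15a share 12 bases with the opposite-strand gene Tulp2, which had a log2 ratio of -0.16 at 12 weeks and 0.20 at 8 weeks.

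Ddit4 encodes REDD1, an inhibitor of the growth kinase mTORC1 that is induced by many stresses and by glucocorticoids. It had 3.70 CPM at 12 weeks, 6.35 CPM at 8 weeks and 1.11 CPM in the control library (49, 91 and 15 counts). Both ZnO libraries were above the control, the 8-week one more so. The log2 ratio was 1.16 at 12 weeks and 1.80 at 8 weeks, and without the added CPM the level was 3.35 times the control at 12 weeks (1.85 to 6.43) and 5.75 times at 8 weeks (3.31 to 10.7). Sesn2 encodes sestrin 2, a leucine-binding inhibitor of mTORC1. It had 9.29 CPM at 12 weeks, 12.1 CPM at 8 weeks and 11.6 CPM in the control library. Its ratio was 0.798 at 12 weeks (0.625 to 1.02) and 1.04 at 8 weeks (0.831 to 1.30), and no difference from the control was detectable at this depth. Of the 2 inhibitors of mTORC1 in the group, Ddit4 was above the control at both times and Sesn2 did not detectably differ.

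Chac1 encodes an enzyme that breaks down glutathione in the cytosol. It had 5.44 CPM at 12 weeks, 2.72 CPM at 8 weeks and 0.811 CPM in the control library, from 72, 39 and 11 counts. The counting intervals of the 3 libraries did not overlap, and the 12-week library was highest. The log2 ratio was 1.83 at 12 weeks and 1.04 at 8 weeks, just past the threshold. Without the added CPM the level was 6.71 times the control at 12 weeks (3.53 to 14.03) and 3.36 times at 8 weeks (1.69 to 7.27). The width of these intervals comes from the 11 control counts. Asns encodes asparagine synthetase, which makes asparagine and is a classic ATF4 target when amino acids are lacking. It had 8 counts at 12 weeks, 8 at 8 weeks and 17 in the control library, which are 0.604, 0.558 and 1.25 CPM. The ratio was 0.482 at 12 weeks (0.180 to 1.18) and 0.446 at 8 weeks (0.167 to 1.09), and no difference was detectable at this depth. With no CPM added, Asns would count as lower at both times (log2 -1.05 at 12 weeks and -1.17 at 8 weeks).

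Gdf15 encodes a secreted stress hormone that acts on the hindbrain and reduces food intake. It had 5.81 CPM at 12 weeks, 6.35 CPM at 8 weeks and 16.4 CPM in the control library (77, 91 and 222 counts). The ZnO libraries were alike and well below the control. The log2 ratio was -1.35 at 12 weeks and -1.24 at 8 weeks, and the level was 0.355 of the control (0.271 to 0.463) and 0.388 of it (0.301 to 0.498). Vldlr encodes a receptor that takes up triglyceride-rich lipoproteins, and in mouse liver it has been described as induced by ER stress through ATF4. It had 18.1 CPM at 12 weeks, 31.3 CPM at 8 weeks and 14.5 CPM in the control library (239, 449 and 196 counts). The 8-week library stood apart and the 12-week library was near the control. The ratio was 1.25 at 12 weeks (1.03 to 1.52) and 2.17 at 8 weeks (1.83 to 2.58), called at 8 weeks alone.

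**Figure D2:**
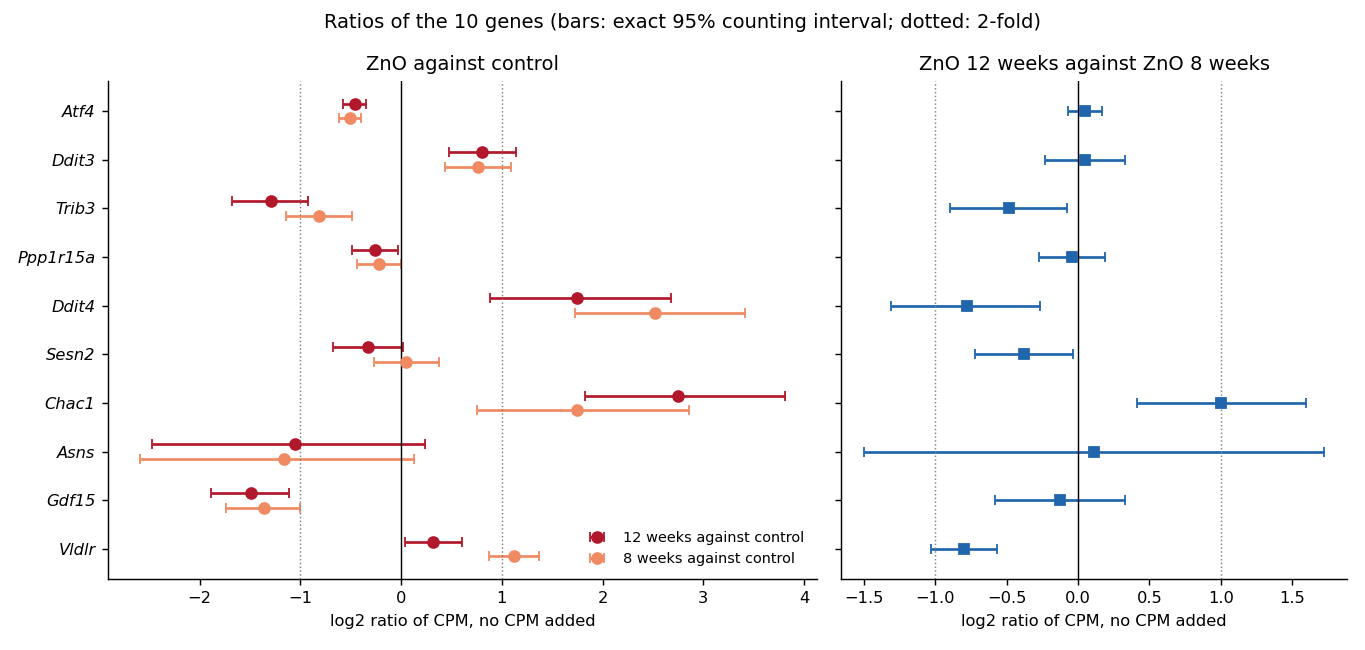
Log2 ratio of CPM, with no CPM added, for each gene: 12 weeks (dark red) and 8 weeks (orange) against the shared control on the left, 12 weeks against 8 weeks on the right; bars are exact 95% counting intervals and dotted lines mark 2-fold. Chac1 and Ddit4 lie right of 0 and Gdf15, Trib3 and Atf4 left of it in both comparisons with the control, and all 10 points on the right lie within 2-fold.

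Between the ZnO libraries no gene of the 10 was called in either direction, where 1.28% of all kept genes were called higher at 12 weeks and 1.23% lower. The counting interval lay above 1 for 1 gene and below 1 for 4 (19.0% and 19.2% of all kept genes). Chac1 had 5.44 CPM at 12 weeks and 2.72 CPM at 8 weeks, a ratio of 1.997 (1.34 to 3.03). Those lower at 12 weeks were Vldlr (ratio 0.576, 0.490 to 0.675), Ddit4 (0.583, 0.403 to 0.833), Trib3 (0.716, 0.537 to 0.9501) and Sesn2 (0.769, 0.605 to 0.975). Atf4 and Ddit3 each had a ratio of 1.03, with intervals of 0.9504 to 1.12 and 0.851 to 1.25. The 2 transcription factors thus differed little between the ZnO libraries while Chac1, Ddit4 and Vldlr differed by more.

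Levels of different genes were compared per kb of the gene length in the files. Atf4 was the most abundant of the 10 in every library, with 48.8 CPM per kb at 12 weeks, 47.2 at 8 weeks and 67.0 in the control. The others were at 9.26 CPM per kb or below in every library. In the control the order was Ppp1r15a (9.06 CPM per kb), Gdf15 (8.83), Trib3 (7.32), Ddit3 (5.29), Sesn2 (3.35), Vldlr (1.44), Ddit4 (0.656), Chac1 (0.495) and Asns (0.458). Neighbours such as Ppp1r15a and Gdf15, or Ddit4, Chac1 and Asns, lie within counting error of each other. At 12 weeks Ddit3 came after Atf4 with 9.26 CPM per kb, against 5.29 in the control. Chac1, near the bottom of the control order, was 4th at 12 weeks with 3.32 CPM per kb, close to Gdf15 (3.14) and Trib3 (2.99). Asns was last in all 3 libraries.

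**Figure D3:**
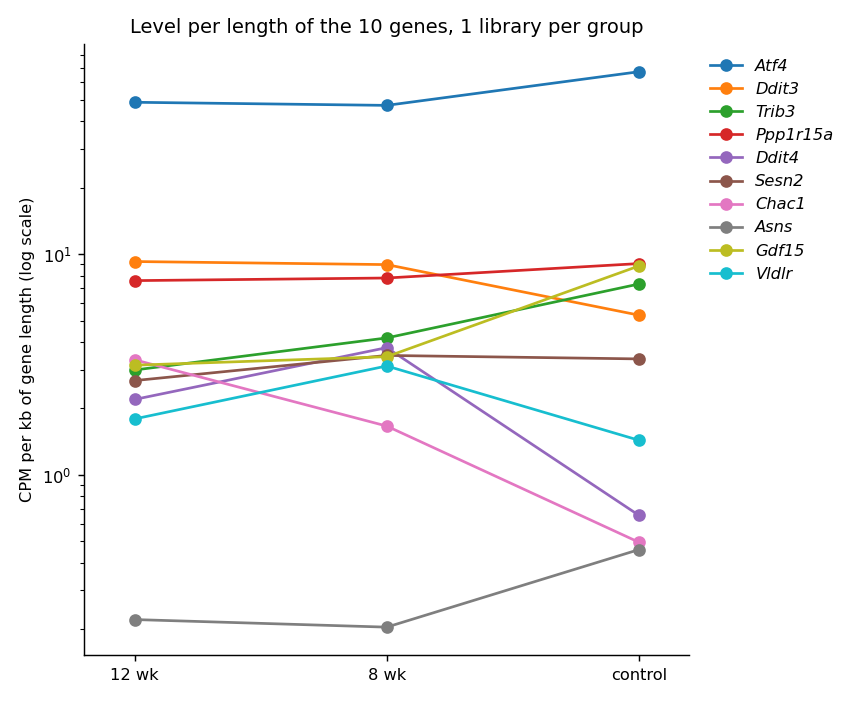
Level per length of the 10 genes (CPM per kb of gene length, log axis) in the 12-week, 8-week and control libraries; each point is 1 library and lines join the points of a gene. Atf4 stays above the others, between 47.2 and 67.0 CPM per kb, and Asns lowest, between 0.204 and 0.458.

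The 10 genes lie on 8 chromosomes and share no exons with each other. In the files' mm10 coordinates Chac1 (chr2:119351229-119354381) and Trib3 (chr2:152337422-152344032) are on chromosome 2, and Ddit3 (chr10:127290774-127296288) and Ddit4 (chr10:59949675-59951770) on chromosome 10. Atf4 is at chr15:80255184-80257540, Gdf15 at chr8:70629393-70632456, Vldlr at chr19:27216484-27254231, Asns at chr6:7675169-7693254, Sesn2 at chr4:132492032-132510501 and Ppp1r15a at chr7:45522916-45526268. Each value is the sum over a gene's exons, and 8 of the 10 have the start and end that GENCODE M21 gives. Deposited values were whole in all 3 libraries for Chac1, Ddit4, Gdf15, Asns and Vldlr. The other 5 carried a fraction in at least 1 library, and rounding moved none of them by a whole count.

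Of the genes that act on eIF2, none was called at 12 or 8 weeks. Few calls are found in short lists at the shares of all kept genes, 3.11% higher and 1.34% lower at 12 weeks. At 8 weeks these shares were 4.15% and 2.10%. The list of the 4 kinases with Gcn1 and Impact had a median log2 ratio of 0.08 at 12 weeks and 0.03 at 8 weeks. Impact was the lowest on it, with -0.69 at 12 weeks and -0.94 at 8 weeks. With no CPM added its log2 ratios were -0.73 and -1.005. Eif2ak3, which encodes PERK, the kinase of the ER, had 29.6 CPM at 12 weeks, 26.9 CPM at 8 weeks and 19.2 CPM in the control (ratios 1.55 and 1.41, intervals 1.32 to 1.81 and 1.20 to 1.65). Log2 ratios at 12 and 8 weeks were 0.14 and 0.42 for Eif2ak2 (PKR), 0.06 and -0.06 for Eif2ak1 (HRI) and -0.05 and 0.12 for Eif2ak4 (GCN2). The 13 genes of eIF2, its exchange factor eIF2B and its phosphatase had medians of -0.06 and 0.02. Among them Ppp1r15b, the constitutive counterpart of Ppp1r15a, had 0.32 and 0.15, and the catalytic subunit Ppp1cb had -0.06 and 0.02.

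Of 9 transcription regulators that act with or beside ATF4 (ATF and C/EBP proteins, Jdp2, Nupr1 and Nfe2l2), 1 was lower at 12 weeks and 1 higher and 1 lower at 8 weeks. Atf5, a transcription factor under the same translational control as Atf4, was the lower one, with 427 CPM at 12 weeks, 510 CPM at 8 weeks and 1043 CPM in the control (log2 -1.29 and -1.03). Jdp2, a repressor that binds the same sites as ATF proteins, was higher at 8 weeks (40 counts, against 11 in the control). At 12 weeks Jdp2 had 28 counts and was not called, with a ratio of 2.61 (1.26 to 5.8) without the added CPM. Atf3 had 32, 22 and 25 counts at 12 weeks, 8 weeks and in the control, and no difference was detectable. Cebpb, a binding partner at the composite element, had log2 ratios of 0.56 at 12 weeks and 0.42 at 8 weeks. Over all kept genes 3.11% were called higher and 1.34% lower at 12 weeks, and 4.15% and 2.10% at 8 weeks.

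The amino acid genes were taken in 3 lists. Of 10 kept enzymes of amino acid and one-carbon metabolism (14 on the list), 1 was higher at 12 weeks and 2 at 8 weeks, with medians of 0.38 and 0.04, where 3.11% and 4.15% of all kept genes were called higher. They were Got1, an aspartate transaminase, at both times (log2 1.47 at 12 weeks and 1.07 at 8 weeks) and the folate enzyme Mthfd1l at 8 weeks (1.18). Mthfd1l had 0.89 at 12 weeks, not called, with a ratio of 2.36 (1.42 to 4.04) without the added CPM. None of 7 kept amino acid transporters (9 on the list) was called, with a median of 0.28 at both times; Slc38a2 had 0.28 at 12 weeks and 0.67 at 8 weeks, and Slc3a2 -0.03 and -0.15. None of the 13 genes of tRNA charging and export was called either, where 1.34% and 2.10% of all kept genes were called lower at 12 and 8 weeks. Their log2 ratios were negative for 10 of 13 at 12 weeks and for 12 of 13 at 8 weeks (medians -0.11 and -0.33), with Eprs at 0.07 and -0.17 and Aars at -0.11 and -0.26. Over all kept genes 51.0% and 51.6% were negative.

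Of 11 kept other targets of ATF4 or CHOP (13 on the list), 1 was lower at 12 weeks, and 1 was higher and 1 lower at 8 weeks. The lower one was Fgf21, a liver hormone that regulates glucose and lipid use, with 7.70 CPM at 12 weeks, 3.001 CPM at 8 weeks and 17.8 CPM in the control. Like Gdf15 it was below the control in both ZnO libraries. Pmaip1, which encodes the pro-death protein NOXA, was higher at 8 weeks, with 26, 33 and 7 counts in the same order. Of 22 genes of the other ER stress arms, those of ATF6 and XBP1, none was called at 12 weeks (median -0.12) and 6 were lower at 8 weeks (median -0.57). The lower ones included Derl3, Sdf2l1, Creld2, Pdia4 and Hyou1 (log2 -2.59, -1.87, -1.56, -1.30 and -1.20 at 8 weeks), which encode proteins of ER folding and disposal. At 12 weeks their log2 ratios were -0.23, -0.29, -0.31, -0.57 and -0.17 in the same order. Derl3 had 97 counts at 12 weeks, 9 at 8 weeks and 119 in the control. The chaperone Hspa5 (BiP) had 0.79 at 12 weeks and 0.75 at 8 weeks, close to the values of Ddit3 (0.74 and 0.70). Over all kept genes 3.11% were called higher and 1.34% lower at 12 weeks, and 4.15% and 2.10% at 8 weeks.

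**Figure D4:**
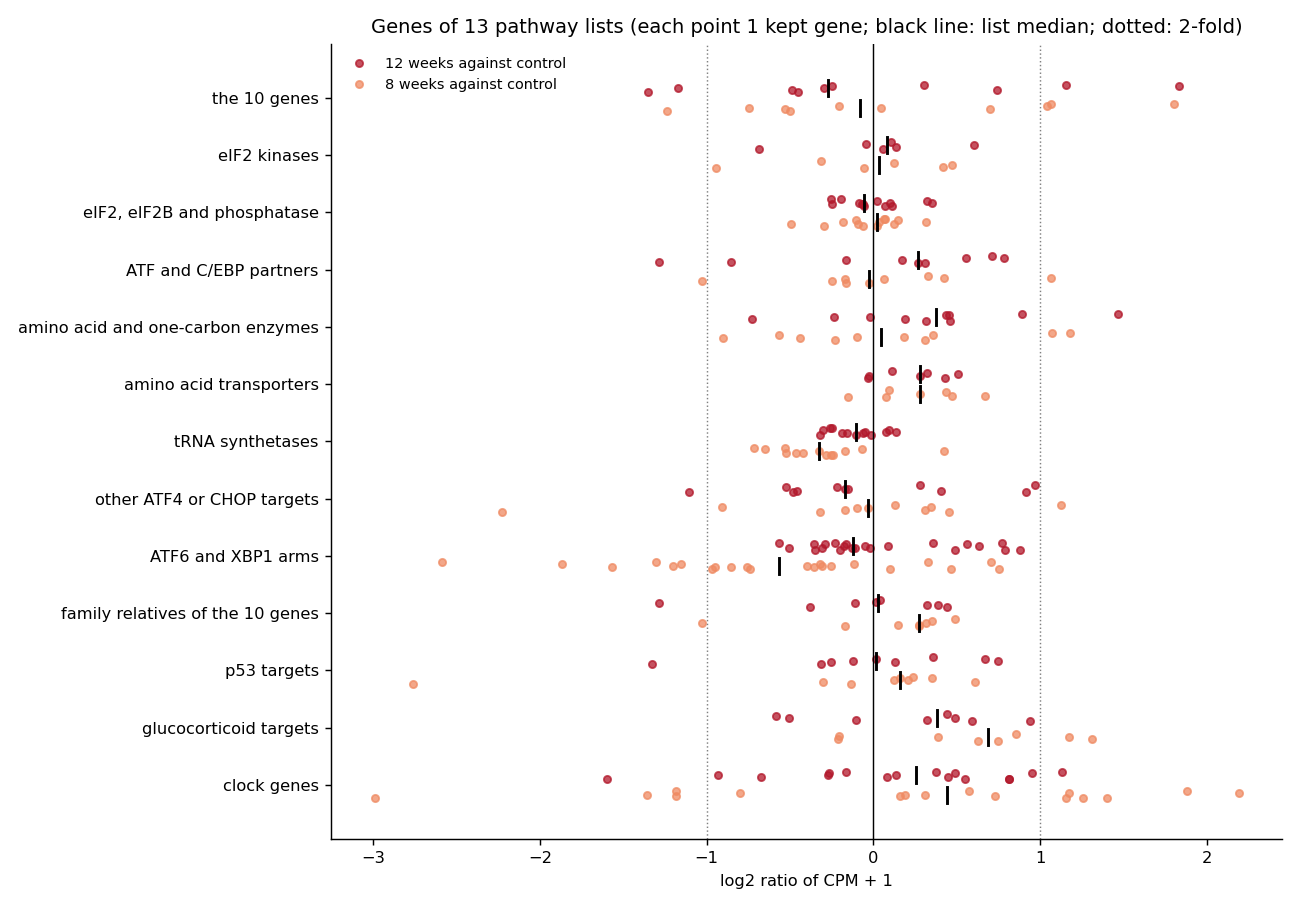
Log2 ratio of CPM + 1 of kept genes in 13 lists, at 12 weeks (dark red, upper) and 8 weeks (orange, lower) against the shared control; each point is a gene, black lines are list medians and dotted lines mark 2-fold. The 10 genes spread from -1.35 to 1.83 at 12 weeks and from -1.24 to 1.80 at 8 weeks, and the ATF6 and XBP1 list lies lower at 8 weeks (median -0.57) than at 12 weeks (-0.12).

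Sesn2 and Gdf15 are also p53 targets and Ddit4 a glucocorticoid target, so lists of these, and of clock genes, were set beside the 10. Of 9 kept p53 targets (11 on the list), Cdkn1a, a cell cycle inhibitor, was lower at both times (6.04 CPM at 12 weeks, 1.61 CPM at 8 weeks and 16.7 CPM in the control), and the list medians were 0.01 and 0.16. Of 8 glucocorticoid targets, none was called at 12 weeks and 2 were higher at 8 weeks, Tsc22d3 (log2 1.31) and Per1 (1.17), with medians of 0.38 and 0.69. Of 16 clock genes, 1 was higher and 1 lower at 12 weeks and 6 were higher and 4 lower at 8 weeks. Over all kept genes 3.11% were called higher and 1.34% lower at 12 weeks, and 4.15% and 2.10% at 8 weeks. Per2 had log2 ratios of 1.13 at 12 weeks and 1.88 at 8 weeks, beside 1.16 and 1.80 for Ddit4, while Arntl had -1.60 and -2.99. The added 1 CPM lowers the ratios of Ddit4 (1.11 CPM in the control) more than those of Per2 (20.1 CPM there). Without it the log2 ratios of Ddit4 were 1.74 at 12 weeks and 2.52 at 8 weeks. The other clock genes with the largest differences at 8 weeks were Ciart (0.95 at 12 weeks and 2.19 at 8 weeks), Per3 (0.815 and 1.399) and Npas2 (-0.93 and -1.36). The hour at which livers were taken is not given in the sources used here, and the part of the clock in the levels of the 10 genes was not tested.

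Markers of other cells also differed between the libraries. The 9 hepatocyte markers that could be matched (10 on the list) were present in each and summed to 61590 CPM at 12 weeks, 59651 CPM at 8 weeks and 47879 CPM in the control. Of the 9, 1 had a negative log2 ratio at 12 weeks and 2 at 8 weeks (lowest -0.54 and -0.36), and Alb was at 31169 CPM at 12 weeks, 31793 CPM at 8 weeks and 21847 CPM in the control. The 10 skeletal muscle markers summed to 1.36 CPM at 12 weeks, 188 CPM at 8 weeks and 1.92 CPM in the control, with 4, 0 and 6 of them at 0 counts (Ckm, Myh2 and Myh4 at 0 in both of the other libraries). Vldlr, which muscle also expresses, and Ddit4 were highest in that 8-week library; at 12 weeks Ddit4 was 3.35 times the control and Vldlr 1.25 times. The 15 macrophage markers summed to 373 CPM at 12 weeks, 486 CPM at 8 weeks and 118 CPM in the control, and Chac1, Ddit4, Ddit3 and Vldlr were likewise higher in both ZnO libraries. The 4 pancreas markers summed to 2.27, 0.977 and 5.45 CPM in that order, and the 4 bile duct markers to 15.3, 6.21 and 16.8 CPM. The part of these cells in the values of the 10 genes was not tested. Sums of the other lists were 226, 238 and 182 CPM for endothelial markers, 311, 313 and 245 CPM for stellate cells and fibroblasts, 19.8, 19.7 and 9.51 CPM for lymphocytes, 2.87, 1.05 and 0.590 CPM for neutrophils and 20.6, 20.2 and 12.0 CPM for adipocyte markers, whose defining member Adipoq had 0, 1 and 0 counts.

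For the 5 genes called in a comparison with the control, the protein-coding genes with the nearest pair of log2 ratios were looked up among 9176 genes with a mean of at least 5 CPM. The pair rests on 3 libraries, so nearness is a description of these libraries. The ratios are of CPM + 1, so for Chac1 and Ddit4 (0.811 and 1.11 CPM in the control) nearness and neighbour counts depend on the added CPM. Without it Chac1 was 6.71 times the control at 12 weeks and 3.36 times at 8 weeks. Its neighbour Slc10a2, less affected, had 36.2 CPM at 12 weeks, 23.3 CPM at 8 weeks and 9.51 CPM in the control. Ddit4 lay nearest to Ifit2 (1.18 at 12 weeks and 1.82 at 8 weeks) and Per2, and 14 genes were within 0.25. Chac1 had the fewest neighbours, 3 within 0.25, with Cxcl9 (1.96 and 1.00) and Slc10a2 (1.83 and 1.21) nearest. Gdf15 lay nearest to Adra1a (-1.38 and -1.19) and Csad (-1.30 and -1.37), with 16 genes within 0.25, and Trib3 to Pctp (-1.09 and -0.76) and Proca1 (-1.08 and -0.74), with 30. Vldlr had 64, nearest Tcea3 (0.28 and 1.06) and Akr1c20 (0.34 and 1.11).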

How the data were processed

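The authors deposited 1 table per library of estimated counts by gene, read as unnormalized from the column headers and the values (70.2% to 71.5% of values above 0 are whole within 0.005). TopHat2 2.1.0 and Cufflinks 2.2.1.0 are named in the submitters' processing notes, as are 2 builds (mm9, mm10), with no step assigned. How genes were counted is not given in the sources used here, and gene positions are those of mm10. Estimated counts were rounded. Totals were 13263211, 14258770 and 13614979 at 12 weeks, 8 weeks and in the control, where 3 counts are 0.227, 0.209 and 0.221 CPM. Libraries were scaled by TMM (edgeR 4.0.16, R 4.3.3) over the whole table, and 1 CPM was added before log2, which understates the change of low genes. Intervals are exact (Clopper-Pearson for ratios, Poisson for levels), at 95%, for counting error only. Lists and named genes followed a written rule (all 10 genes; up to 5 called genes per list and comparison, else its 2 most abundant; some fixed regulators), but the 10 genes and all lists were chosen with earlier results of these data known. Impact, Gcn1, Gm4189, Tulp2 and Mars were named for their list or overlap. Calls and intervals were run on counts simulated with counting noise only, which leave out differences between animals. Alternatives included DESeq2 1.42.0 size factors. Python 3.11.15, numpy, pandas, scipy and matplotlib were used.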

Additional observations from a re-analysis of the deposited data

Results flagged for a closer look

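Xbp1, which encodes a transcription factor of the ER stress response, was on opposite sides of the control at the 2 times. It had 293 CPM at 12 weeks, 158 CPM at 8 weeks and 188 CPM in the control, with log2 ratios of 0.64 at 12 weeks and -0.25 at 8 weeks, a difference of 0.89. Counting intervals of both ratios excluded 1 (1.48 to 1.64 and 0.792 to 0.887). With 1 library per group the difference was not tested, and the control is shared. The search for such genes covered only the 10 genes and those named by the rule. On the list of the ATF6 and XBP1 arms, 21 of 22 genes were higher at 12 weeks than at 8 weeks (median log2 0.58). Dnajc3 on that list, not named by the rule, was also on opposite sides. Its ratios were 1.06 at 12 weeks (1.02 to 1.11) and 0.758 at 8 weeks (0.726 to 0.791). Among the 10 genes Sesn2 was also on opposite sides (-0.30 at 12 weeks and 0.05 at 8 weeks), with both counting intervals including 1. No group had the number of samples that a check for outlying samples needs.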

How the results depend on the processing

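Under each of 3 other scalings (DESeq2 size factors, total counts, upper quartile) the 30 log2 ratios of the 10 genes had the sign and the calls given in the report, and likewise with unrounded counts. Thresholds and filters leave a ratio as it is, and the added CPM cannot turn its sign. The 5 CPM filter drops Asns. The calls were also those of the report with 0.5 CPM added, and with 5 CPM added Ddit4 at 8 weeks had a log2 ratio of 0.90, against 1.80. With 5 CPM added, 0 of the 10 were called higher or lower at either time. A threshold of 1.5-fold gave 4 higher and 2 lower at 8 weeks, 3 and 2 at 12 weeks, and 1 and 2 between the ZnO libraries (Chac1 higher, Ddit4 and Vldlr lower). At 3-fold, 1 was higher and 0 lower at each time, Ddit4 at 8 weeks and Chac1 at 12 weeks. With no CPM added, chosen after seeing the data, 2 were lower at 8 weeks and 3 at 12 weeks, Asns being the addition.

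Over all kept genes, 454 were called higher and 196 lower at 12 weeks, 605 and 307 at 8 weeks, and 186 and 180 between 12 and 8 weeks. In the same order these were 179 and 80, 269 and 160, and 89 and 72 with 5 CPM added; 1354 and 907, 1547 and 1162, and 789 and 690 at 1.5-fold; 132 and 48, 225 and 92, and 61 and 67 at 3-fold; and 1023 and 463, 1140 and 659, and 495 and 456 with no CPM added. With 0.5 CPM added, 309 were higher between 12 and 8 weeks. Over the 128 kept genes of the other 12 lists, 2 were higher and 4 lower at 12 weeks, 11 and 13 at 8 weeks, and 9 and 1 between the ZnO libraries. These were 19 and 10, 19 and 24, and 20 and 8 at 1.5-fold, and 0 and 1, 2 and 5, and 1 and 0 at 3-fold. With 5 CPM added 2 were lower at 12 weeks and 3 higher between the ZnO libraries. With 0.5 CPM added 5 were higher at 12 weeks, and with no CPM added 7 were higher and 7 lower there. Between the ZnO libraries 2 were lower under upper-quartile scaling or with no CPM added. The added CPM bears most on genes of few counts, as its construction implies. Depth limits Asns (8 to 17 counts), Chac1 and Ddit4 (11 and 15 control counts). No paired analysis was possible because each group has 1 library.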

Other observations

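Close relatives of some of the 10 genes were measured beside them. Chac2, which encodes the second cytosolic enzyme that breaks down glutathione, had log2 ratios of -0.11 at 12 weeks and 0.31 at 8 weeks, beside 1.83 and 1.04 for Chac1. The pseudokinase genes Trib1 and Trib2 had 0.44 and 0.39 at 12 weeks and -0.17 and 0.27 at 8 weeks, where Trib3 had -1.17 and -0.75. The sestrin genes Sesn1 and Sesn3 had 0.01 and 0.04 at 12 weeks and 0.35 and 0.49 at 8 weeks, where Sesn2 had -0.30 and 0.05. Of the 8 kept relatives (10 on the list), 1 was called, Atf5, lower at both times. Over all kept genes 1.34% were called lower at 12 weeks and 2.10% at 8 weeks. The relatives were named after their values were seen. Impact, an inhibitor of the kinase GCN2, had 13.5 CPM at 12 weeks, 11.2 CPM at 8 weeks and 22.4 CPM in the control.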
